A study of Mus musculus with 11 samples.

Results

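A set of 10 genes that encode ring-shaped complexes of chromosome structure was followed in KP1 cells after irradiation, namely the cohesin genes *Smc1a*, *Smc3*, *Rad21*, *Stag1* and *Stag2*, the cohesin loader gene *Nipbl*, the condensin genes *Smc2* and *Smc4*, and *Smc5* and *Smc6*. These 10 genes were chosen by name, out of 35056 genes to which the reads of the files could be summed. KP1 is 1 mouse small cell lung cancer (SCLC) cell line, mutant for *Rb* and *p53*, grown in RPMI-1640 medium. In this bulk RNA sequencing arm of a study on radiotherapy, the control group was untreated KP1 cells (libraries 2 and 3) and the irradiated group was KP1 cells exposed to 5 Gy (libraries 1, 2 and 3), and the cell pellets were taken at 24 h. The question here is how the RNA of these genes differed between irradiated and untreated cells of the same line. Nothing in the labels says that the libraries of a group came from separate cultures, so the p-values measure the spread between these libraries, which may be technical. The single-cell samples of the study, which are leukocytes from tumors, were not analysed here.

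Cohesin is a ring built from the Smc1a and Smc3 ATPases and the kleisin Rad21, which closes the ring and binds either Stag1 or Stag2. It extrudes chromatin loops in interphase, holds sister chromatids together from S phase until anaphase, and takes part in the repair of DNA double-strand breaks from the sister chromatid. Condensin, built on Smc2 and Smc4, compacts chromosomes for mitosis, and the complex of Smc5 and Smc6 resolves recombination and replication intermediates. Ionizing radiation breaks DNA and halts cells with functional checkpoints in G1 or G2. These complexes are therefore of interest both as repair factors and as markers of cells that divide.

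Each library held 21185956 to 31036317 estimated reads. The neuroendocrine markers *Insm1*, *Chga*, *Syp*, *Ncam1*, *Uchl1* and *Epcam* were present in every library, at 276 reads (*Epcam*, control 2) or more. Of the leukocyte markers, *Ptprc* had 1 to 24 reads, *Cd68* 9 to 51, *Lyz2* 0 to 2 and *Cd3e* 0 to 2. Of the fibroblast and endothelial markers, *Col3a1* was at 0 in all 5 libraries, *Cdh5* had 0 to 2 reads, *Col1a1* 2 to 33 and *Pecam1* 10 to 43, whereas *Pdgfra* had 2368 to 3707. The mean length of the transcripts on which the reads fell was 5463 and 4729 bases in the control libraries but 3715, 3625 and 3998 bases in the irradiated libraries, so the groups did not overlap in this measure. Long transcripts as a class had fewer reads in the irradiated libraries, and all 10 genes have long transcripts (mean lengths of 3823 to 9423 bases, weighted by abundance). Each fold change of the 10 genes is therefore given without and with an offset that removes the trend of reads with transcript length in each library. The offset removes such a trend whether it is technical or biological, and these cannot be told apart in this design.

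All 10 genes had a lower level, in transcripts-per-million (TPM), in each irradiated library than in either control. In edgeR (quasi-likelihood test on the reads, p adjusted by Benjamini and Hochberg's method), 8 of the 10 fell at an adjusted p under 0.05 and 0 rose (9 fell and 0 rose at an unadjusted p under 0.05, and DESeq2 called 9 lower and 0 higher). The background for this count is 13 percent of the 14106 genes tested called lower and 12.7 percent called higher. Among the 3195 tested genes with transcripts of 3823 to 9423 bases, the length range of the 10 genes, 35.3 percent were called lower and 0.657 percent higher. The median log2 fold change of the 10 genes was −0.64 (range −1.07 to −0.15), beside 0.02 over all genes tested and −0.51 over the genes of that length range. With the length offset 0 of the 10 passed in either direction (1 was lower at an unadjusted p under 0.05), against 3.52 percent of all genes lower and 4.2 percent higher, and 3.19 percent lower and 3.44 percent higher in the length range, and the median became −0.18, beside 0.02 over the genes of the length range. None of the 10 passed the threshold of a log2 fold change below −1.5, which 1.9 percent of all genes passed. Without control 2 the number called lower was 0 (9 at an unadjusted p under 0.05) and the median was −0.59, but that setting also called only 175 of 14618 genes lower over all genes, where 1827 of 14106 were called with all libraries. Without control 3 it was 6 of the 10 (1977 of all genes), and without irradiated 1, 2 or 3 it was 4, 3 or 5 (909, 834 or 1460 of all genes). In bulk samples, fewer cells of a kind and less RNA per cell cannot be told apart.

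**Figure D1:**
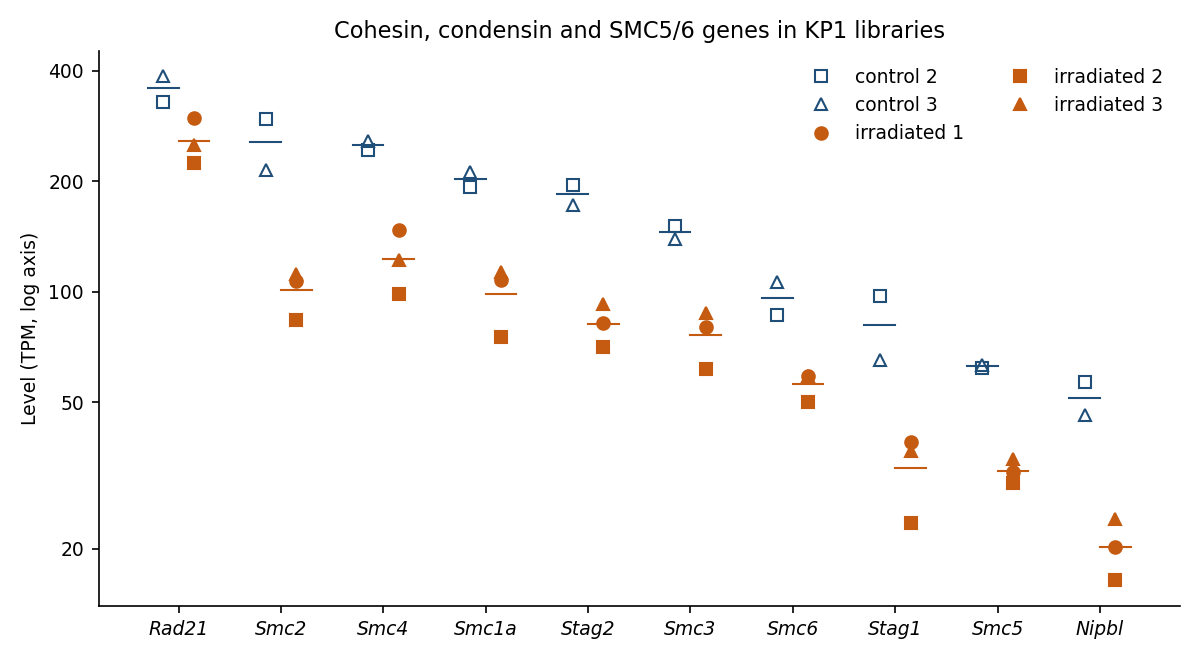
TPM (log axis) of the 10 genes in the 2 control libraries (open blue symbols) and the 3 irradiated libraries (filled orange symbols), with a bar at each group mean; genes are ordered by their mean in control cells. The irradiated libraries lie below both controls for every gene. On the log axis the gap between the groups is smallest for *Rad21*, from 298 TPM in irradiated 1 to 328 TPM in control 2.

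The lower TPM of the 10 genes was shared by many other genes, above all by long ones. TPM in all 3 irradiated libraries lay below both controls for 43.3 percent of the 12470 tested genes with a mean TPM of at least 1 and for 80 percent of the 2656 such genes in the length range of the 10 genes. The median gene stood at 82.3% of its control TPM, the median gene of the length range at 56.9%, and the median of the 10 genes at 48.9%. On the scale of library-normalised counts-per-million (CPM), which the test uses, 9 of the 10 genes had every irradiated library below both controls, where 29.3 percent of all genes and 62.6 percent of those in the length range did so. The exception was *Rad21*.

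The levels of the ATPases of the cohesin ring fell to about the same degree. *Smc1a* (GRCm38 chrX:152016428-152062694, plus strand) stood at 193 and 212 TPM in controls 2 and 3 and at 108, 75.3 and 113 TPM in irradiated 1, 2 and 3. The groups did not overlap, irradiated 2 was the lowest, and the irradiated mean of 98.6 ± 20.4 TPM (SD, n = 3) was 48.7% of the control mean of 202 ± 13.0 TPM (SD, n = 2). *Smc1a* fell by 0.68 on the log2 scale (SE 0.183, 95% interval −1.09 to −0.26, adjusted p = 0.0312), and its value with the length offset was −0.35 (95% interval −0.72 to 0.03, adjusted p = 0.191). *Smc3*, its ATPase partner (chr19:53600398-53645833, plus strand), stood at 151 and 139 TPM in the controls and at 80.0, 61.6 and 87.5 TPM in the irradiated libraries. Again the groups were apart and irradiated 2 was the lowest. *Smc3* fell by 0.61 on the log2 scale (SE 0.169, 95% interval −0.99 to −0.22, adjusted p = 0.0336), and its value with the length offset was −0.13 (95% interval −0.44 to 0.18, adjusted p = 0.554).

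*Rad21*, the kleisin that separase cuts at anaphase (chr15:51962240-51991747, minus strand), had the highest level of the 10 genes in both groups. Without the length offset it also had the smallest fold change between them. It stood at 328 and 387 TPM in the controls and at 298, 224 and 252 TPM in the irradiated libraries, with group means of 358 ± 41.3 TPM (SD, n = 2) and 258 ± 37.4 TPM (SD, n = 3). The TPM values did not overlap, but on the CPM scale irradiated 1 (704) lay above control 2 (624) and below control 3 (728). The log2 fold change was −0.15 (SE 0.174, 95% interval −0.54 to 0.25, adjusted p = 0.558) and, with the length offset, 0.15 (95% interval −0.24 to 0.55, adjusted p = 0.576), so neither direction was shown.

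The STAG subunits are alternatives for the same place in the ring: Stag1 cohesin is enriched at boundaries of chromatin domains and telomeres, and *STAG2* is often mutated in human cancers. *Stag1* (chr9:100597798-100959375, plus strand) stood at 97.5 and 65.4 TPM in the controls and at 38.9, 23.5 and 36.9 TPM in the irradiated libraries, a mean of 40.6% of control. *Stag2* (chrX:42149317-42277185, plus strand) stood at 196 and 172 TPM in the controls and at 82.3, 70.6 and 92.7 TPM in the irradiated libraries, a mean of 44.5% of control. For each gene the groups did not overlap, and the control libraries of *Stag1* were far apart from each other. *Stag1* fell by 0.94 on the log2 scale (SE 0.203, 95% interval −1.40 to −0.47, adjusted p = 0.0157) and *Stag2* fell by 0.57 (SE 0.157, 95% interval −0.93 to −0.21, adjusted p = 0.0323). Under the length offset the values were −0.37 for *Stag1* (adjusted p = 0.166) and −0.16 for *Stag2* (adjusted p = 0.412).

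*Nipbl*, which with Mau2 loads cohesin onto chromatin and stimulates its ATPase (chr15:8290617-8444463, minus strand), had the lowest level and the largest fold change of the 10 genes without the offset. It stood at 56.8 and 46.3 TPM in the controls and at 20.1, 16.4 and 24.1 TPM in the irradiated libraries, a mean of 39.2% of control with no overlap. *Nipbl* fell by 1.07 on the log2 scale (SE 0.176, 95% interval −1.47 to −0.67, adjusted p = 0.0092). It also has the longest transcripts, of 9423 bases on average, and the length offset brought the value to −0.08 (SE 0.118, 95% interval −0.35 to 0.19, adjusted p = 0.676). Its loading partner *Mau2*, with transcripts of 3490 bases, had a log2 fold change of −0.47 that did not pass (adjusted p = 0.069).

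The condensin ATPases stood side by side with the cohesin ATPases. *Smc2* (chr4:52439243-52488260, plus strand) was at 296 and 214 TPM in the controls and at 107, 83.8 and 112 TPM in the irradiated libraries, a mean of 39.5% of control. *Smc4* (chr3:69004738-69034623, plus strand) was at 244 and 257 TPM in the controls and at 147, 98.9 and 122 TPM in the irradiated libraries, a mean of 49.1% of control. Both genes had every irradiated library well below both controls. *Smc2* fell by 0.94 on the log2 scale (SE 0.154, 95% interval −1.29 to −0.59, adjusted p = 0.0092) and *Smc4* fell by 0.70 (SE 0.182, 95% interval −1.12 to −0.28, adjusted p = 0.0277). With the length offset *Smc2* had a log2 fold change of −0.44, the lowest of the 10 genes and the only one of them whose 95% interval (−0.74 to −0.15) lay wholly below zero, but it did not pass the adjustment (unadjusted p = 0.0083, adjusted p = 0.0696). For *Smc4* the value was −0.35 (95% interval −0.75 to 0.05, adjusted p = 0.207).

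*Smc5* and *Smc6* encode the ATPases of the complex that acts most directly in recombination repair. *Smc5* (chr19:23206451-23273897, minus strand) stood at 62.0 and 63.4 TPM in the controls and at 32.3, 30.2 and 35.1 TPM in the irradiated libraries, with the least spread within groups, relative to its level, of the 10 genes. *Smc6* (chr12:11265886-11319785, plus strand) stood at 86.6 and 106 TPM in the controls and at 58.9, 49.98 and 59.1 TPM in the irradiated libraries. Neither gene had overlapping groups, and neither rose after irradiation. *Smc5* fell by 0.53 on the log2 scale (SE 0.137, 95% interval −0.84 to −0.21, adjusted p = 0.0278), while *Smc6*, at −0.46 (SE 0.156, 95% interval −0.81 to −0.10, adjusted p = 0.0615), did not pass. The values under the offset were −0.21 (adjusted p = 0.280) for *Smc5* and 0.02 (95% interval −0.33 to 0.37, adjusted p = 0.932) for *Smc6*. The calls of *Smc1a* and *Smc5* were lost when any 1 of the 5 libraries was left out.

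**Figure D2:**
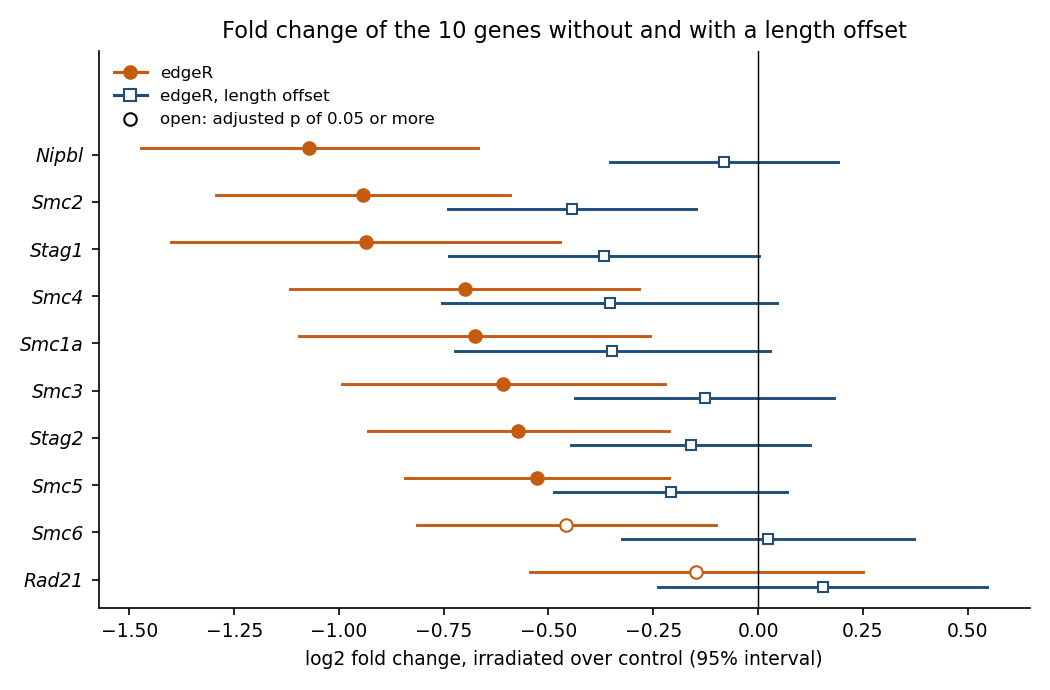
Log2 fold change (irradiated over control, 95% intervals) of the 10 genes in edgeR without (orange circles) and with (blue squares) the transcript length offset; filled symbols mark an adjusted p under 0.05. Without the offset the values run from −1.07 (*Nipbl*) to −0.15 (*Rad21*) and 8 are filled, and with it they run from −0.44 (*Smc2*) to 0.15 (*Rad21*) and none is filled.

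The size of the fall among the 10 genes went in part with transcript length. Not every gene followed it, as *Smc1a* and *Smc4* fell by more than the longer *Stag2*, *Smc3* and *Smc6*. Over all genes tested, the median log2 fold change by decile of transcript length went from 0.77 in the shortest (81 to 1020 bases) to −0.25 in the eighth (3424 to 4117 bases), −0.40 in the ninth (4118 to 5264 bases) and −0.78 in the longest (5266 bases and over). In the longest 3 deciles, 16.9%, 26.7% and 53.2% of the genes were called lower. *Smc1a*, *Rad21*, *Smc4* and *Smc5* belong to the eighth decile, *Smc3*, *Stag1*, *Stag2*, *Smc2* and *Smc6* to the ninth, and *Nipbl* to the longest. Set against the median of their own decile, 9 of the 10 genes lay lower, *Smc2* by −0.54, *Stag1* by −0.53, *Smc4* by −0.45 and *Smc1a* by −0.43, whereas *Smc6* was close to it at −0.06 and *Rad21* was above it by 0.10. By construction, as many genes of a decile lie under its median as over it. Each decile spans a range of lengths, so these differences are not free of the trend with length. Across the 10 genes, which share the same 5 libraries and are not independent, length and log2 fold change had a Pearson r of −0.65 and a Spearman rho of −0.71, and without *Nipbl* −0.61 and −0.60 over 9 genes. An offset on GC content in place of length (39.1% GC for *Stag2* to 47.3% for *Smc1a*) left 2 of the 10 called lower, *Nipbl* and *Smc2*, and 1698 of the 14106 genes tested, whereas the length offset left 497.

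**Figure D3:**
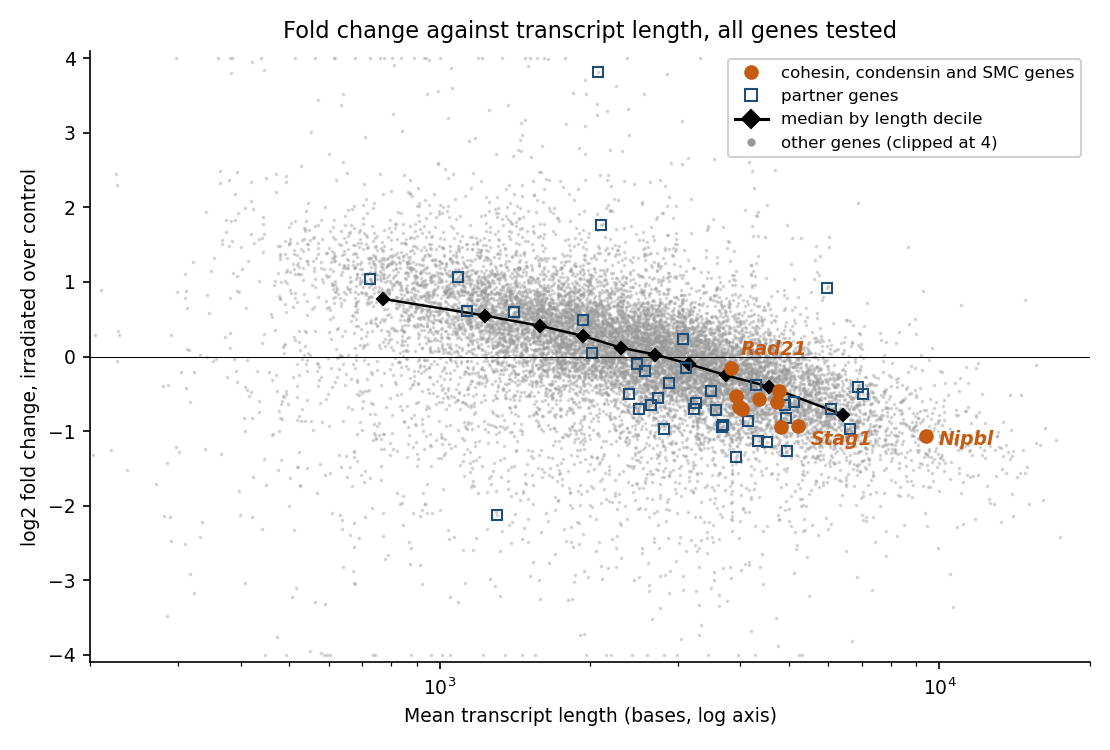
Log2 fold change (irradiated over control) against mean transcript length in bases (log axis) for all genes tested (grey, values beyond 4 drawn at 4, lengths outside the axis not drawn), the 10 genes (orange) and their partner genes (blue squares); black diamonds give the median of each decile of length. The medians descend from 0.77 to −0.78, and 9 of the 10 genes lie under the median of their decile, with *Rad21* 0.10 above. By construction, as many genes of a decile lie under its median as over it.

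Since a ratio between partners of 1 complex within a library is free of library scaling, the stoichiometry of the RNA was compared for 4 pairs. The partners differ in transcript length (*Smc1a* 3975 and *Smc3* 4742 bases, *Smc4* 4024 and *Smc2* 4825, *Smc6* 4773 and *Smc5* 3911, *Stag2* 4356 and *Stag1* 5221), so the ratios are not free of the trend with length. The ratio of *Smc1a* to *Smc3* TPM was 1.28 and 1.52 in the controls and 1.35, 1.22 and 1.29 in the irradiated libraries. The ratio of *Smc4* to *Smc2* was 0.824 and 1.198 in the controls and 1.37, 1.18 and 1.09 in the irradiated libraries. The ratio of *Smc6* to *Smc5* was 1.397 and 1.68 against 1.82, 1.66 and 1.68. The groups overlapped in each of these, as they did for *Stag2* to *Stag1*, at 2.01 and 2.63 against 2.12, 3.01 and 2.51. The log2 differences, irradiated minus control, were −0.12, 0.29, 0.17 and 0.13, with two-sided exact permutation p of 0.5, 0.5, 0.2 and 0.6 and 0.6 for each after adjustment over the 4 pairs, where 0.1 is the smallest p that 3 libraries against 2 can give. A shift in stoichiometry was thus not shown within any pair, at a design that could not reach 0.05. The ratios of *Rad21* were looked at after its values were seen and carry no test. As *Rad21* was picked for its small fold change between the groups, higher ratios to genes that fell more follow from that choice, and no shift is read from them. Its transcripts are of 3823 bases, so these ratios are not free of the trend with length either. *Rad21* to *Smc3* was 2.17 and 2.77 in the controls and 3.73, 3.64 and 2.87 in the irradiated libraries. *Rad21* to *Smc1a* was 1.70 and 1.83 in the controls and 2.77, 2.98 and 2.23 in the irradiated libraries. In both ratios all irradiated libraries lay above both controls, though control 3 and irradiated 3 were close for *Rad21* to *Smc3*.

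The order of the levels, compared per length on the TPM scale, hardly differed between the groups. In control cells *Rad21* (358 TPM) was followed by *Smc2* (255 TPM) and *Smc4* (250 TPM), whose ranges overlapped, then by *Smc1a* (202 TPM) and *Stag2* (184 TPM), whose ranges also overlapped, and *Smc3* (145 TPM). *Smc6* (96.4 TPM) and *Stag1* (81.4 TPM) overlapped as well, and *Smc5* (62.7 TPM) and *Nipbl* (51.6 TPM) came last. In irradiated cells *Smc4* (123 TPM) stood before *Smc2* (101 TPM) and the other 8 genes kept their rank by mean. The irradiated ranges of *Smc4*, *Smc2*, *Smc1a*, *Stag2* and *Smc3* overlapped from each to the next, as did those of *Stag1* and *Smc5*. The order within these genes was thus not resolved in irradiated cells. Thus the RNA of the kleisin was more abundant than that of either ATPase of its ring, and that of the loader was the least abundant, in both groups.

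The promoters of these genes were examined because 8 of the 10 fell together, and because some genes of mitosis carry a CCAAT box (bound by NF-Y), an E2F site or a CHR element, which binds the MuvB complex in its repressive and activating forms. RefSeq start sites (GRCm38.p6) were at hand for 6 of the 10, *Smc1a*, *Smc2*, *Smc3*, *Smc5*, *Smc6* and *Stag1*, and the 250 bases before each start were searched on both strands for CCAAT, for the CHR letters TTTGAA or TTCGAA, and for the E2F letters TTTGGCGC, TTTCCCGC, TTTCGCGC or TTTGGCGG. The CCAAT letters occurred in 3 of the 6 and in 33.8% of all 32851 promoters, the CHR letters in 2 of the 6 and in 17.1% of all, and the E2F letters in 1 of the 6 and in 1.96% of all. The 4 promoters with a match are given 5′ to 3′ on the strand of the gene, with the matches in capitals:
Smc2: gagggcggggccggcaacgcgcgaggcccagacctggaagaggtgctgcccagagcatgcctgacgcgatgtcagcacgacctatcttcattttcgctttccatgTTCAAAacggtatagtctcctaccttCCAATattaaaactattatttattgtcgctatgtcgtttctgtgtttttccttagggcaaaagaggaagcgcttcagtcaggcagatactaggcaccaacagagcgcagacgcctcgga
Stag1: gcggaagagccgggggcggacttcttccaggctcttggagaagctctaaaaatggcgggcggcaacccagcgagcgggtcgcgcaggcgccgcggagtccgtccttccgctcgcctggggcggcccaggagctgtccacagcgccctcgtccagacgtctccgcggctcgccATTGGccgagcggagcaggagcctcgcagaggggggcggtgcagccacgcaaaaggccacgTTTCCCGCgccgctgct
Smc1a: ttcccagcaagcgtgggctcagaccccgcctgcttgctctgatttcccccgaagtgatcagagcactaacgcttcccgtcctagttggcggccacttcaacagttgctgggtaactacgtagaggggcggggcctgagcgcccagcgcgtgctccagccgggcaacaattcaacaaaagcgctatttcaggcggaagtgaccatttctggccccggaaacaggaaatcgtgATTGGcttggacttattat
Smc6: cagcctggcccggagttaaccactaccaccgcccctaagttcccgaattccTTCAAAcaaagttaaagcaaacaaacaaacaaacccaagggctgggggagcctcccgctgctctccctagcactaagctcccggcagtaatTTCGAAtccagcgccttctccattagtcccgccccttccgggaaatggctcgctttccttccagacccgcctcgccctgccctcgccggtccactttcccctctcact
The *Smc2* window (chr4:52438971-52439220, plus strand) holds the CHR letters on the reverse strand, starting 145 bases before the start site, and the CCAAT letters at 119 bases, and it was the only one of the 6 with both. The *Stag1* window (chr9:100643198-100643447, plus strand) holds a reverse CCAAT at 78 bases and the E2F letters TTTCCCGC at 17 bases, and it lies inside the GENCODE span of the gene, so that it belongs to 1 of its start sites. The *Smc1a* window (chrX:152016178-152016427, plus strand) holds a reverse CCAAT at 19 bases. The *Smc6* window (chr12:11265636-11265885, plus strand) holds CHR letters at 199 and 108 bases. *Smc3* and *Smc5* had none of these letters in their windows, and the *Smc5* window (chr19:23272600-23272849, minus strand) also lies inside the GENCODE span of its gene. Of the 4 genes shown, *Smc2*, *Stag1* and *Smc1a* were called lower and *Smc6* was not, and of the 2 without a match both were called lower.

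Lower values were not limited to the full-length coding transcripts. Reads that Salmon assigned to the 21 retained-intron transcripts of the 10 genes summed to 298 and 257 in the controls and to 67, 70 and 74 in the irradiated libraries. In reads-per-million (RPM) this is 9.60 and 9.75 against 2.73, 3.30 and 2.72, so that the irradiated mean was 30.1% of the control mean. The 37 transcripts of at most 1000 bases stood at 25.7 and 18.1 RPM in the controls and at 9.69, 7.30 and 8.87 in the irradiated libraries, a mean of 39.3% of control. The transcripts over 3000 bases, which carry nearly all reads, stood at 3383 and 3626 against 2719, 2197 and 2482 RPM, or 70.4% of control. In none of these classes did the groups overlap. In the other genes of the same length range the same classes stood at 45.9% (retained intron), 50.6% (at most 1000 bases) and 69.8% (over 3000 bases) of control, while over all genes the retained-intron transcripts stood at 60.1%, those of at most 1000 bases at 156% and those over 3000 bases at 79.2%. Retained-intron transcripts of at most 1000 bases stood at 71.1% over all genes, at 35.5% for the other genes of the length range and at 27.4% for the 10 genes. Short transcripts of these 10 genes and of genes like them in length were lower after irradiation, and those over all genes were higher. These classes are unlike, as the class over all genes also holds the transcripts of short genes, and the cause of the difference was not tested. These splits between isoforms are estimates from shared sequence and are given as a description.

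**Figure D4:**
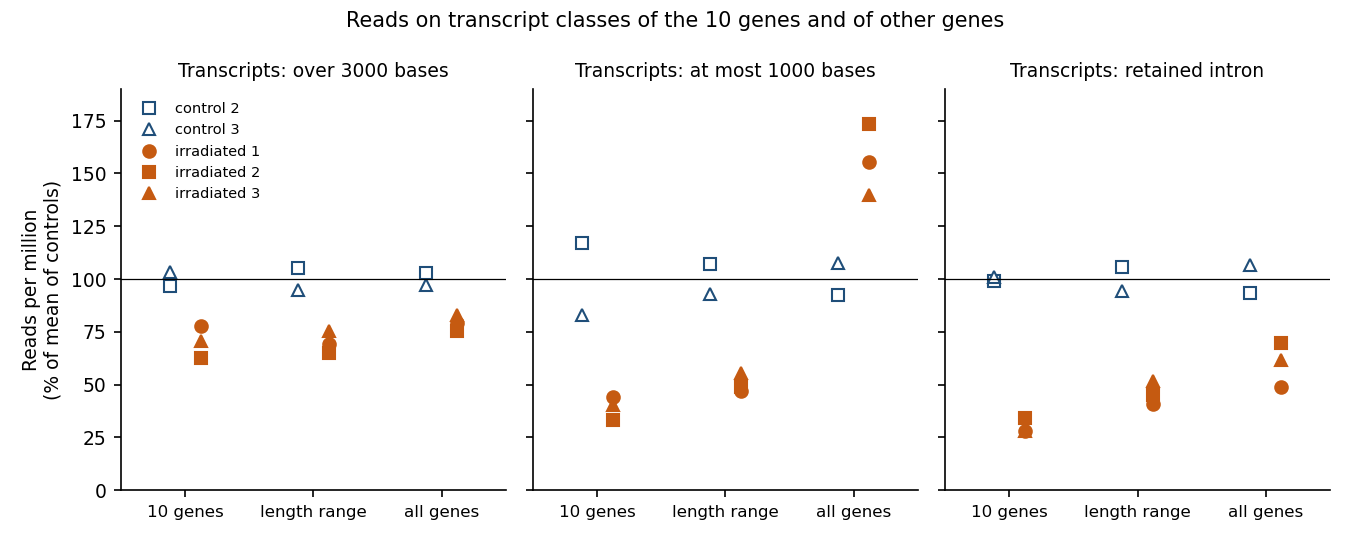
RPM on transcripts over 3000 bases, of at most 1000 bases and with a retained intron, as a percentage of the mean of the controls, for the 10 genes, for the other genes of their length range and for all genes; symbols are the 5 libraries. For the 10 genes the irradiated means are 70.4%, 39.3% and 30.1%. They are 69.8%, 50.6% and 45.9% for the other genes of the length range and 79.2%, 156% and 60.1% over all genes.

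The estimated shares of the isoforms within a gene are given for *Smc2* and *Smc4* as examples, without a test. *Smc2* is read mainly from 2 coding transcripts, *Smc2*-201 (5404 bases) and *Smc2*-202 (5328 bases). *Smc2*-202 took 9.92% and 18.4% of the reads of the gene in the controls and 19.2%, 25.6% and 27.0% in the irradiated libraries, and *Smc2*-201 took 84.8% and 81.6% against 80.1%, 74.1% and 72.3%. The groups did not overlap, though control 3 and irradiated 1 were close. The shares of these transcripts are nearly complementary, so they are not separate observations. The groups were also apart for *Stag2*-203, at 25.6% and 24.5% in the controls and 22.9%, 21.3% and 20.6% in the irradiated libraries. How often the groups are apart over other isoforms was not counted, so no change of isoform is read from these shares. The nonsense-mediated decay transcript *Smc4*-207 (4057 bases) took 11.1% and 26.0% in the controls and 14.6%, 17.5% and 22.6% in the irradiated libraries, with full overlap.

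To see whether the wider machinery behaved alike, 40 partner genes of the 3 complexes were listed by role, of which 39 could be tested. Of these, 19 fell, 1 rose (*Nsmce1*) and 19 did not pass (25 fell and 6 rose at an unadjusted p under 0.05), with a median log2 fold change of −0.55. The shares of all genes tested were 13 percent lower and 12.7 percent higher. With the length offset 7 fell and 0 rose (16 and 4 at an unadjusted p under 0.05), with a median of −0.23. The shares of all genes were then 3.52 percent lower and 4.2 percent higher. The partner genes are also longer, with a median of 3224 bases against 2502 bases over all genes tested. No share was taken over genes of their own length range. The 7 partner genes lower with the offset were *Top2a*, *Rad50*, *Espl1*, *Kif4*, *Ncapg*, *Esco2* and *Sgo1*. Without control 2 the number called lower was 2, and without irradiated 2 it was 7, in settings that also called fewer of all genes.

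Of the 6 partner genes that protect or cut cohesin in mitosis, 5 fell, and 2 with the length offset, where 13 percent and 3.52 percent of all genes tested did. *Espl1*, the gene of separase, which cuts Rad21, fell by 1.14 on the log2 scale (adjusted p = 0.0082) and by 0.73 with the length offset (adjusted p = 0.0298). Its TPM was 67.5 and 58.1 in the controls and 20.8, 20.001 and 31.7 in the irradiated libraries. The protectors of centromeric cohesin *Sgo1* and *Sgo2a* fell by 0.51 (adjusted p = 0.0385) and 0.83 (adjusted p = 0.0101), and the genes of the kinases Haspin and Bub1, which phosphorylate histones at centromeres in mitosis, *Haspin* and *Bub1*, fell by 0.97 (adjusted p = 0.0253) and 0.71 (adjusted p = 0.0243). With the length offset *Haspin* stood at −0.94 (adjusted p = 0.0575), *Bub1* at −0.56 (adjusted p = 0.0762) and *Sgo2a* at −0.32 (adjusted p = 0.136), which did not pass. *Sgo1* passed at −0.57 (adjusted p = 0.0399), although its TPM in irradiated 3 (55.5) was close to that of control 2 (55.8). *Pttg1*, the gene of securin, which inhibits separase, had a log2 fold change of 1.04 that did not pass (adjusted p = 0.0547). Its transcripts are of 725 bases, and with the length offset it stood at 0.45 (adjusted p = 0.249).

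Among the regulators of the ring in interphase, *Wapl*, which opens it, fell by 0.61 on the log2 scale (adjusted p = 0.0314), and its co-factors *Pds5a* and *Pds5b* fell by 0.72 (adjusted p = 0.0129) and 0.70 (adjusted p = 0.0138). Under the offset these were −0.07, −0.48 (adjusted p = 0.0505) and −0.03. *Esco2*, the acetyltransferase gene that locks cohesion in S phase, fell by 0.65 (adjusted p = 0.0269) and by 0.64 with the offset (adjusted p = 0.0399), with TPM of 53.8 and 89.4 in the controls and 32.5, 34.2 and 35.9 in the irradiated libraries. *Cdca5*, the gene of sororin, which counters Wapl, had a log2 fold change of 0.05 (adjusted p = 0.888). *Ctcf*, whose protein halts loop extrusion, fell by 0.55 (adjusted p = 0.0318), and the length offset hardly moved its value (−0.53, adjusted p = 0.0586). Its transcripts are of 2740 bases, where the median over all genes tested is 2502 bases.

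**Figure D5:**
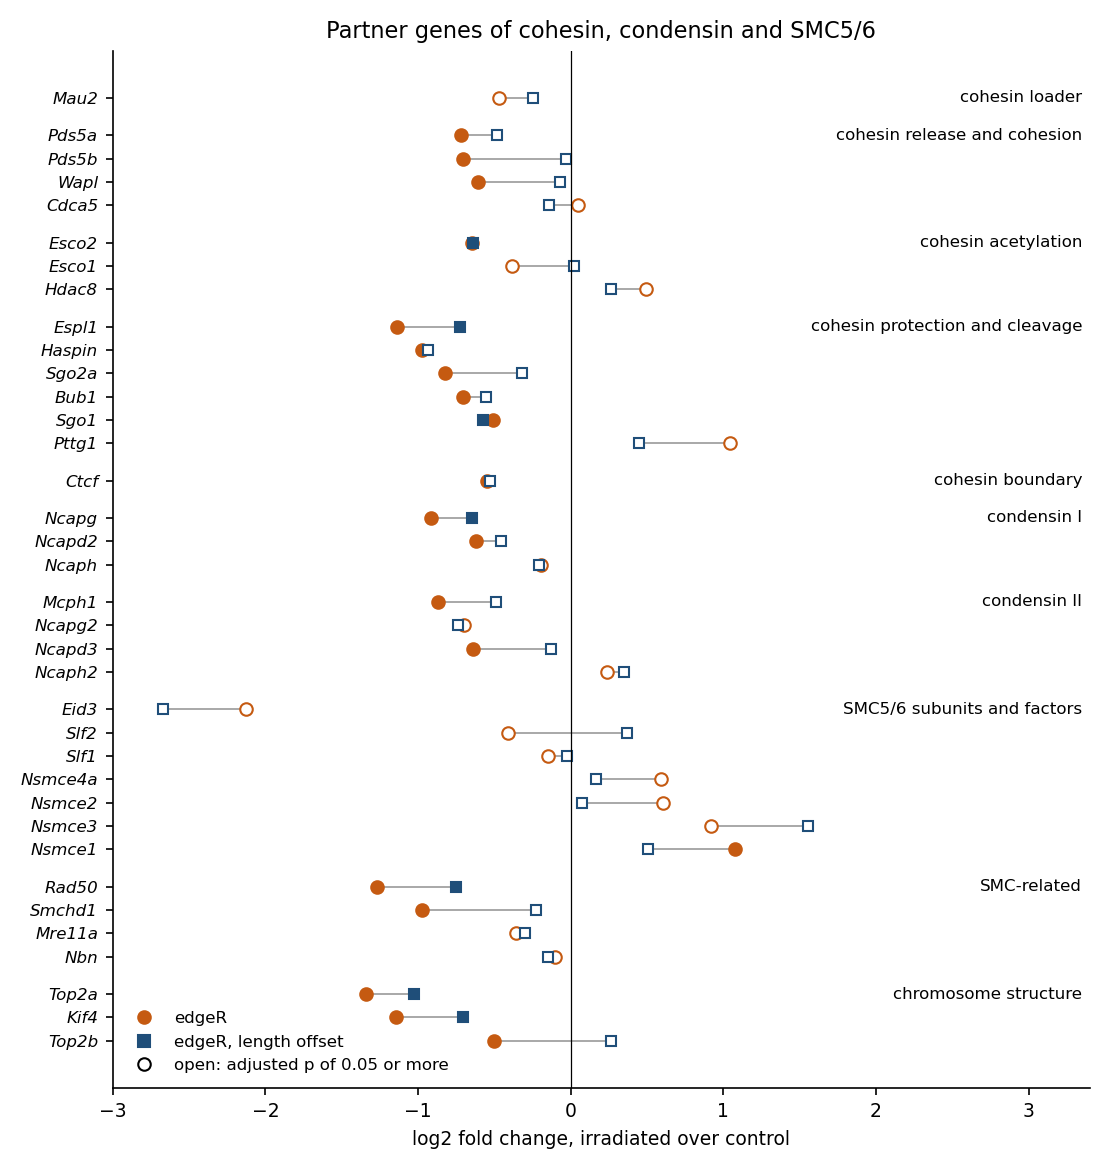
Log2 fold change (irradiated over control) of 36 partner genes by role in edgeR without (orange circles) and with (blue squares) the length offset, filled where the adjusted p is under 0.05; the germline subunits are not drawn. Blue filled squares mark the 7 genes that passed with the offset, of which *Top2a* (−1.02) is the lowest, and *Nsmce1* (1.07) is the only filled symbol right of zero.

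The subunits that complete condensin fell in part. *Ncapg* (condensin I) fell by 0.92 on the log2 scale (adjusted p = 0.0092) and by 0.65 with the length offset (adjusted p = 0.0301), and *Ncapd2* fell by 0.62 (adjusted p = 0.0292), whereas the kleisin gene *Ncaph* had a value of −0.20 (adjusted p = 0.443). In condensin II *Ncapd3* fell by 0.64 (adjusted p = 0.0181), and *Ncapg2* had −0.70 (adjusted p = 0.0526). Its kleisin gene *Ncaph2*, the most abundant of the condensin II genes, had 0.24 (adjusted p = 0.249), with TPM of 139 and 148 in the controls and 143, 127 and 140 in the irradiated libraries. *Mcph1*, an inhibitor of condensin II, fell by 0.87 (adjusted p = 0.0304). With the length offset *Ncapd2* stood at −0.46 (adjusted p = 0.0858), *Ncapd3* at −0.13 (adjusted p = 0.608) and *Mcph1* at −0.49 (adjusted p = 0.173), so none of these passed. The kleisin genes of cohesin and of both condensins, *Rad21*, *Ncaph* and *Ncaph2*, a grouping made after the values were seen, did not pass.

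*Top2a*, the topoisomerase that works with condensin in mitosis, fell by 1.34 on the log2 scale (adjusted p = 0.0082) and by 1.02 with the length offset (adjusted p = 0.0236), from 774 and 791 TPM in the controls to 286, 208 and 296 TPM in the irradiated libraries. *Kif4*, a chromosome-bound kinesin that helps condensin, fell by 1.14 (adjusted p = 0.0092) and by 0.70 with the offset (adjusted p = 0.0301), while *Top2b*, which is not tied to division, fell by 0.51 (adjusted p = 0.0421) and had 0.27 with the offset (adjusted p = 0.276). *Rad50*, the SMC-like gene of the complex that senses DNA breaks, fell by 1.27 (adjusted p = 0.0092) and by 0.75 with the offset (adjusted p = 0.0378), with TPM of 36.3 and 29.9 in the controls and 12.2, 8.30 and 12.9 in the irradiated libraries. Its complex partners *Mre11a* (−0.36, adjusted p = 0.0915) and *Nbn* (−0.10, adjusted p = 0.631) did not pass. *Smchd1*, an SMC-like gene of X inactivation, fell by 0.97 (adjusted p = 0.0115), with −0.23 under the offset.

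Of the 7 further subunits and factors of the Smc5 and Smc6 complex, 1 rose and 0 fell in the edgeR test (4 were higher and 2 lower at an unadjusted p under 0.05), with a median log2 fold change of 0.59 and, with the length offset, 0.17. Over all genes tested, 12.7 percent were called higher and 13 percent lower. *Nsmce1*, the ubiquitin ligase subunit, rose by 1.07 on the log2 scale (adjusted p = 0.0153), from 66.0 and 74.5 TPM in the controls to 139, 127 and 88.0 TPM in the irradiated libraries. With the length offset it stood at 0.51 (adjusted p = 0.119), its transcripts being of 1090 bases. *Nsmce2* (0.61, adjusted p = 0.0607), *Nsmce3* (0.92, adjusted p = 0.0771) and *Nsmce4a*, the kleisin (0.59, adjusted p = 0.0821), did not pass. Under the length offset *Nsmce2* stood at 0.07 (adjusted p = 0.771) and *Nsmce4a* at 0.17 (adjusted p = 0.527), whereas *Nsmce3*, whose transcripts are of 5946 bases, stood at 1.55 (adjusted p = 0.0531). The recruiting factors *Slf1* (−0.15) and *Slf2* (−0.41) did not pass either, nor did *Eid3* (−2.12), which had few reads and is described with the germline genes. With the length offset *Slf1* stood at −0.02, *Slf2* at 0.37 (adjusted p = 0.125) and *Eid3* at −2.67, and none of them passed.

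Genes of the cell cycle were set beside these values, as cohesin and condensin genes vary with it. Over all genes tested, 13 percent were called lower and 12.7 percent higher (3.52 and 4.2 percent with the length offset). Of 12 S phase genes, 1 fell (*Rrm1*, by 0.52, adjusted p = 0.0446) and 1 rose (*Pcna*, by 0.86, adjusted p = 0.0272), with a median log2 fold change of 0.08. With the length offset 0 of these 12 passed, *Rrm1* standing at −0.19 (adjusted p = 0.368) and *Pcna* at 0.45 (adjusted p = 0.124). Of 12 genes of G2 and mitosis, 3 fell and 0 rose, with a median of −0.17. These 3 were *Mki67* (−2.57), *Cenpe* (−2.004) and *Cenpf* (−1.80), each at an adjusted p of 0.0082, with transcripts of 9960, 7620 and 9998 bases, and with the length offset all 3 passed at −1.503, −1.14 and −0.76. *Cdk1* (0.64, adjusted p = 0.140), *Ccnb1* (−0.08) and *Aurkb* (−0.01) did not pass. The part of cell cycle phase in the values of the 10 genes was not tested.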

How the data were processed

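Bulk RNA sequencing libraries of 2 control and 3 irradiated KP1 samples were analysed, and groups were taken from the treatment labels. The authors quantified reads with Salmon (0.8.2 in the submitters' processing notes, which also name DESeq2 1.22.2) against mm10; the annotation release is not given in the sources used here. The deposited files hold, per transcript, the estimated count of reads (an expected count, not scaled) and the TPM made by the authors, which is scaled within each library. Of 113116 transcripts, 112762 were matched to GENCODE M21 and summed to 35056 genes, with 21185956 to 31036317 reads per library, and estimated counts were rounded to whole numbers. The 10 genes had 1675 to 19403 reads per library, and the spread between libraries, not counting, sets the precision of their values.

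Irradiated and control libraries were compared in edgeR 4.0.16 (R 4.3.3) with filterByExpr, TMM and quasi-likelihood tests, adjusted after Benjamini and Hochberg over 14106 genes, without a block. Genes were called at an adjusted p of 0.05, and separately with a log2 fold change beyond 1.5. The length offset was a spline with 5 degrees of freedom on log2 transcript length in each library. The 95% intervals rest on edgeR's standard errors. Ratios of TPM were compared with two-sided exact permutation tests. Alternatives were DESeq2 1.42.0, other normalizations and filters, coding genes or transcripts alone, offsets from Salmon's effective length or GC content, a replicate block, and each library left out. Samples with the numbers 2 and 3 occur in both groups, but the differences between these numbers correlated at −0.20 between the groups, so the numbers were not taken to pair the samples. The fits were tested on simulated data with 200 changed genes.

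Named genes were the 10 genes, partner and cell cycle genes that passed the test, the most abundant gene of each role, and the 3 genes with the nearest profiles. Further genes of a role that did not pass were named after their values were seen. A marker gene is not reported here. The 10 genes and all lists were chosen with earlier results of these data known.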

Additional observations from a re-analysis of the deposited data

How the results depend on the processing

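The count of the 10 genes called lower was 8 in the reported edgeR test. It was 8 or 9 with DESeq2, RLE or upper quartile normalization, the other filters, coding genes or transcripts alone and effective length, 2 with the GC offset, and 0 with the transcript length offset. It was 1 (*Nipbl*, adjusted p = 0.0418) with the replicate block (494 of all genes tested), 0 once the length offset was added to it (2 of all genes), and 9 with a crossed block (2670 of all genes, against 1827 in the reported test), which was chosen after the data were seen because the numbers correlated at −0.20; the pairing is not given by the labels. Their median log2 fold change of −0.64 became −0.18 with the length offset, −0.31 with the GC offset and −0.22 with the block and length offset together. The 19 partner genes called lower became 7 with the length offset, 11 with the GC offset, 7 with the block and 0 with the block and length offset. The 1 partner gene called higher became 5 with DESeq2, 3 with upper quartile normalization, 6 without a filter, 4 with the GC offset, 5 with the crossed block and 0 with the length offset, the block or both. *Rad21* turned to 0.15 with the length offset, 0.020 with the GC offset and 0.025 with the block and length offset, and *Smc6* to 0.024 with the length offset. Leaving out 1 library gave 0 to 6 of the 10 genes called lower (0 without control 2, 6 without control 3, 4, 3 and 5 without irradiated 1, 2 and 3), medians of −0.71 to −0.52, 2 to 16 partner genes lower and 0 to 5 higher. The ratio of *Smc1a* to *Smc3* then ranged from −0.24 to 0.0093 (reversed without control 3), and that of *Stag2* to *Stag1* from −0.064 to 0.33 (reversed without control 2), in log2 difference. That of *Smc4* to *Smc2* ranged from 0.015 (without control 2) to 0.56 (without control 3), and that of *Smc6* to *Smc5* from 0.037 to 0.30. Without 1 control, the lone control is assumed to vary like the irradiated libraries. The cause of these changes was not tested. None of the alternatives called any of the 10 genes higher or past a log2 fold change of −1.5.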

Other observations

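The germline forms of cohesin, which replace mitotic subunits in meiosis, were near the limit of detection in KP1 cells. *Rec8*, the meiotic kleisin, had 0 and 9 reads in the controls and 151, 23 and 4 in the irradiated libraries. *Smc1b* had 7 and 12 reads in the controls and 47, 8 and 36 in the irradiated libraries. Neither passed (adjusted p = 0.115 and 0.152 in edgeR's quasi-likelihood test), and the groups overlapped, with the level of *Rec8* set by irradiated 1. *Stag3* had 97 and 78 reads in the controls and 36, 43 and 42 in the irradiated libraries (log2 fold change −0.95, adjusted p = 0.121). *Rad21l* had 0 and 3 reads against 3, 0 and 0 and was not tested. *Eid3*, an alternative kleisin of the Smc5 and Smc6 complex, had 84 and 19 reads in the controls and 5, 11 and 15 in the irradiated libraries. Its log2 fold change was −2.12 (adjusted p = 0.0757), and −0.75 without control 2.

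Irradiated 2 was the lowest library for every one of the 10 genes on the TPM scale. The median difference of the 10 genes from the control mean was −0.52 in irradiated 1, −0.90 in irradiated 2 and −0.52 in irradiated 3 on the log2 CPM scale.

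Among 9477 other genes with a mean of at least 10 CPM, the profiles over the 5 libraries nearest to the mean profile of the 10 genes were those of *Tex9*, *Adnp* and *Ptprz1*, at root-mean-square distances of 0.014, 0.027 and 0.032 on the centred log2 scale. Their log2 fold changes were −0.64 (adjusted p = 0.0447), −0.70 (adjusted p = 0.0157) and −0.63 (adjusted p = 0.0677). With mean transcript lengths of 1649, 4283 and 5293 bases, their values with the length offset were −0.97, −0.31 and −0.06.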
